A study of Homo sapiens with 6 samples.

Results

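The ubiquitin-conjugating (E2) enzymes were examined in a pulldown screen for RNAs that associate with the FERRY complex, which RAB5 recruits to early endosomes. Members were the protein-coding genes of the deposited count table whose symbol is UBE2 followed by a letter, with or without a digit and a further letter, which gave 34 of 60676 genes. The bait was GST fused to the FERRY complex (GST-Ferry) in 3 libraries and GST by itself in 3 control libraries. Both baits were bound to glutathione resin and exposed to HEK 293 lysate (an established line of human embryonic kidney origin, kept in suspension culture), and the RNA left on the washed resin was sequenced after removal of ribosomal RNA. No genotype, drug or time differs between the groups. GST-Ferry is a protein bait exposed to lysate, so the RNA came from broken cells and not from cells that carry the fusion. All values are comparisons between the baits, since no library of input RNA was analysed here.

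Ubiquitin reaches its substrates through a relay of enzymes. An E1 activates ubiquitin with ATP, an E2 accepts it on a catalytic cysteine, and an E3 ligase brings the loaded E2 to the substrate. The E2 often sets which linkage a chain has, and a few E2s carry ubiquitin-like modifiers such as NEDD8 or ISG15 instead of ubiquitin.

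None of the E2 mRNAs was called enriched on GST-Ferry or depleted from it by edgeR, while DESeq2 called 3 enriched and 2 depleted. The differences were small: 23 of the 32 members with enough counts for a test had a log2 fold change between -0.5 and 0.5, and 0 reached 1 in either direction. Among the members that stood highest with GST-Ferry were UBE2S and UBE2C of the anaphase-promoting complex, the NEDD8 enzyme UBE2M (close to 0 once G+C content and length were fitted), the ISG15 enzyme UBE2L6, and UBE2Q1. UBE2V1, the partner of UBE2N in building K63 chains, and UBE2Q2 stood lowest with clear separation between the baits. The fold changes of the family were higher for transcripts of higher G+C content, as they were over all genes, and 1 GST library (GST 3) differed from the other GST libraries along the same property.

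Sequences around the catalytic cysteine are shown for 8 members because they mark what the family shares and because near-identical copies bear on how well reads can be assigned. All are coding strand, from GENCODE release 29 on GRCh38, starting at the codon for histidine of the His-Pro-Asn signature (His-Cys-Asn in the UBE2E class), with the codon of the catalytic cysteine in capitals. First come 3 genes of the UBE2D class, then 5 members whose GST-Ferry values were all above their GST values or that had the highest fold change.
UBE2D1: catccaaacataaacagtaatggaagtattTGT
UBE2D2: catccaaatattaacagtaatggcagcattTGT
UBE2D3: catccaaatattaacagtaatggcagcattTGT
UBE2E3: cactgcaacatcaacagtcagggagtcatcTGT
UBE2M: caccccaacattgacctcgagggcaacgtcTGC
UBE2L6: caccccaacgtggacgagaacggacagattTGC
UBE2C: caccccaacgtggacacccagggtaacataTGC
UBE2S: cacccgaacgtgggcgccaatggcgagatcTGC

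Of the 34 members, 19 encode His-Pro-Asn with the cysteine 8 residues after the asparagine, 3 have it 9 residues after (UBE2H, UBE2K and UBE2U), and 3 have His-Cys-Asn (UBE2E1, UBE2E2 and UBE2E3). The search found no such stretch in the other 9, namely UBE2J1, UBE2J2, UBE2O, UBE2Q1, UBE2Q2, UBE2V1, UBE2V2, UBE2W and UBE2Z. UBE2V1 and UBE2V2 are known as E2 variants without the catalytic cysteine. The 33 bases shown are identical in UBE2D2 and UBE2D3, and UBE2D1 differs from both at 4 of them while encoding the same residues. Over the whole principal transcript, 1.17% of the 50-base windows of UBE2D2 and 1.32% of those of UBE2D3 occur in other members. Counting all other genes, 5.04% of the windows of UBE2D3 are shared, most often with UBE2D3P1. For UBE2E3, 10.2% are shared, with the pseudogene UBE2E4P. The G+C content of the stretch was 30.3% in UBE2D1 and 33.3% in UBE2D2 and UBE2D3. It was 57.6% in UBE2C and UBE2L6, 60.6% in UBE2M, and 66.7% in UBE2S.

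The E2 mRNAs together took a like share of each library. They made up 0.228%, 0.215% and 0.261% of the counts in GST 1, GST 2 and GST 3, and 0.261%, 0.252% and 0.233% in GST-Ferry 1, 2 and 3. The means were 0.235% ± 0.0238 with GST and 0.249% ± 0.0144 with GST-Ferry (SD, n = 3 each), and the ranges overlapped. Of the 34 members, 2 fell below the count filter. UBE2U had 1, 0 and 3 counts with GST and 1, 0 and 0 with GST-Ferry. UBE2L5, whose coding sequence is 97.6% identical to that of UBE2L3, had 1, 2 and 1 counts with GST and 0, 0 and 1 with GST-Ferry.

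The tested members spanned a wide range of levels, from UBE2F at 9.28 ± 0.592 CPM (counts scaled to a library total of 1000000) with GST to UBE2D3 at 263 ± 92.6 CPM (mean ± SD, n = 3). Per kilobase of transcript, UBE2D3 was highest with GST at 110 CPM per kb, followed by UBE2M at 77.9, UBE2E1 at 75.8 and UBE2C at 62.7 CPM per kb. With GST-Ferry, UBE2M stood at 111 and UBE2D3 at 100.2 CPM per kb, followed by UBE2C at 90.9 and UBE2E1 at 83.5 CPM per kb. Among the tested members, UBE2F at 4.35 and UBE2W at 5.00 CPM per kb were the lowest with GST.

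**Figure D1:**
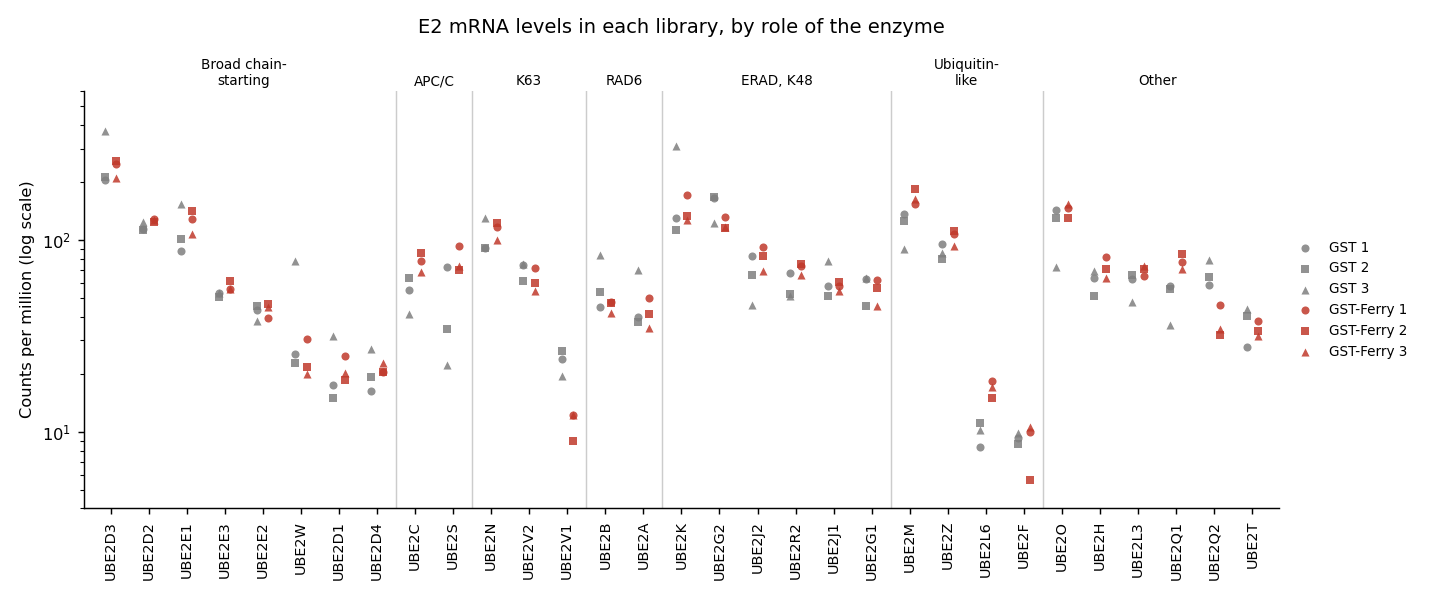
Levels of 31 of the 32 tested E2 mRNAs in CPM (log axis), with 1 point per library, GST in grey and GST-Ferry in red, grouped by role and ordered by mean level within a role. Most members overlap between the baits; UBE2V1 and UBE2Q2 lie lower with GST-Ferry, UBE2L6 lies higher, and GST 3 (grey triangle) stands apart for UBE2W and UBE2K.

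No member passed the threshold of an adjusted p under 0.05 in the quasi-likelihood test of edgeR (Benjamini-Hochberg over the 15546 genes tested). Over all genes, 92 were called enriched (0.592%) and 5 depleted (0.0322%), and 0 of 32 is a share near that background. At an unadjusted p under 0.05 by the same test, 6 members were higher with GST-Ferry (18.8%, against 11.3% of all genes tested) and 2 were lower (6.25%, against 8.05%). DESeq2 called 3 members enriched (UBE2Q1 and UBE2S among them) and 2 depleted (UBE2Q2 and UBE2V1), with 3.43% and 1.14% of all genes called, and limma-voom called 0 and 0. The SE of the members' log2 fold changes ran from 0.18 to 0.44 with a median of 0.23.

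The direction of the family was close to even. A fold change above 0 was found for 19 members and one below 0 for 13, that is 59.4% above 0 against 47.8% of all genes tested and 52% of protein-coding genes. The median log2 fold change was 0.14 for the members, -0.03 for all genes tested and 0.02 for protein-coding genes. In CPM, all 3 GST-Ferry libraries exceeded all 3 GST libraries for 6 members (18.8%, against 11.9% of all genes tested), among them UBE2L6, UBE2Q1, UBE2C, UBE2M and UBE2E3. All 3 lay below the GST libraries for UBE2V1 and UBE2Q2 (6.25%, against 13.9%). On values scaled with TMM factors the separated members were 9 higher (28.1%, against 14.9% of all genes) and 3 lower (9.38%, against 12.2%). UBE2E3 left the higher set on that scale, UBE2O, UBE2R2, UBE2S and UBE2Z joined it, and UBE2G2 joined the lower set.

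**Figure D2:**
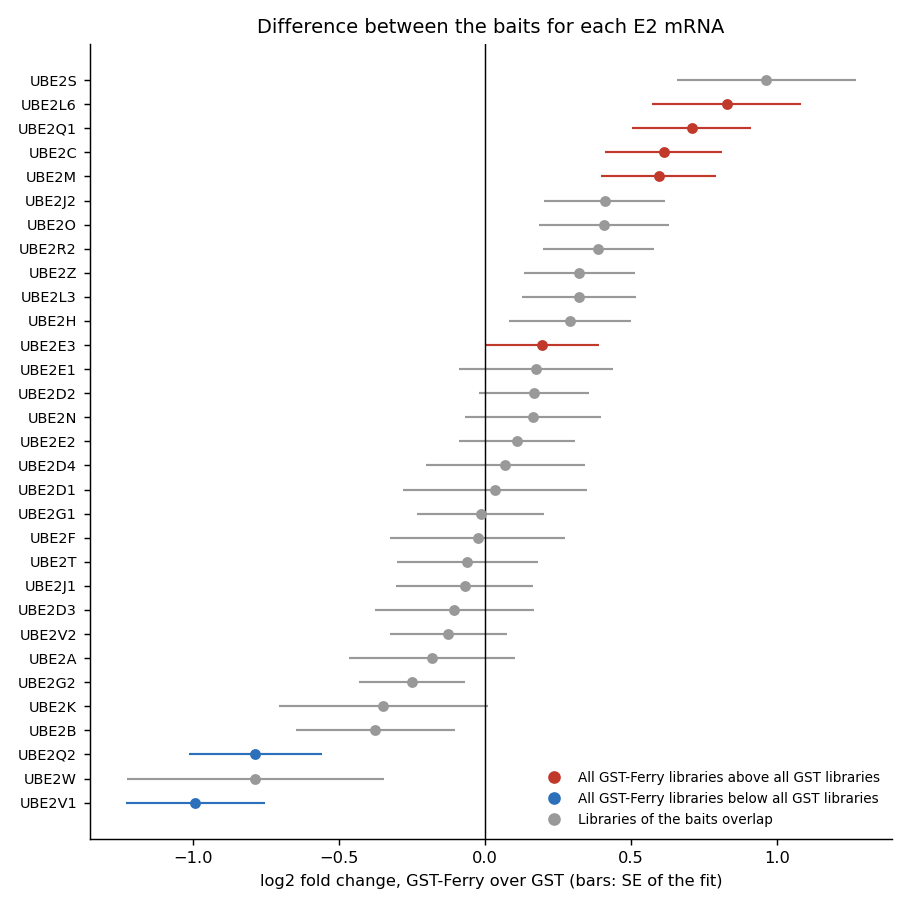
Log2 fold change of GST-Ferry over GST for 31 of the 32 tested E2 mRNAs, with bars for the SE of the fit and colours for whether the CPM values of the baits are separated. The members range from -0.99 (UBE2V1) to 0.96 (UBE2S), and 0 of 32 passed the adjusted threshold in edgeR (5 did in DESeq2).

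The E2s that serve the anaphase-promoting complex (APC/C), the E3 that drives exit from mitosis, both had a fold change above 0, and neither passed the edgeR test. By DESeq2 the adjusted p was 0.0468 for UBE2S and 0.0927 for UBE2C. UBE2C, which starts chains on APC/C substrates, lies on chromosome 20 (45812576 to 45816957, plus strand) and measured 55.3, 63.3 and 41.3 CPM with GST and 78.1, 85.3 and 68.4 with GST-Ferry. Its baits did not overlap, with a log2 fold change of 0.61 ± 0.20 (SE) and an adjusted p of 0.139 in edgeR's quasi-likelihood test, and with offsets for G+C content and length it stood at 0.35. UBE2S, which extends those chains through K11, lies on chromosome 19 (55399745 to 55407777, minus strand) and measured 72.8, 34.4 and 22.5 CPM with GST and 92.8, 69.99 and 73.3 with GST-Ferry. GST 1 lay inside the range of the GST-Ferry libraries and the other GST libraries lay below it. UBE2S had the highest log2 fold change of the family, 0.96 ± 0.31 (SE), with an adjusted p of 0.132 by edgeR; it was chosen for its values after they were seen. Its log2 fold change ran from 0.68 to 1.47 when 1 library was left out, and edgeR called it without GST 1 (1.47, adjusted p = 0.0352) and not without GST 2 (0.80, adjusted p = 0.237) or GST 3 (0.68, adjusted p = 0.0845). Of the 50-base windows of UBE2S, 17.5% also occur in 2 other genes, most often in the processed pseudogene UBE2SP1. UBE2SP1 had 7 to 24 counts per library, against 166 to 683 for UBE2S.

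Among the 5 E2s that carry ubiquitin-like modifiers, 4 stood above 0 and 3 were separated between the baits, with a median log2 fold change of 0.59. Over all genes tested, 11.9% were separated upwards and 13.9% downwards.

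UBE2M (UBC12), which loads NEDD8 onto cullins, lies on chromosome 19 (58555712 to 58558960, minus strand). It measured 138, 125 and 89.6 CPM with GST and 155, 184 and 164 with GST-Ferry. The groups did not overlap, and the log2 fold change was 0.59 ± 0.20 (SE, adjusted p = 0.143 by edgeR). It was 0.08 with offsets for G+C content and length (adjusted p = 0.855 by edgeR). UBE2F, the other NEDD8 E2, measured 9.28 ± 0.592 CPM with GST and 8.72 ± 2.71 with GST-Ferry (SD, n = 3 each), with a log2 fold change of -0.03 ± 0.30 (SE). Of the 50-base windows of UBE2M, 10.7% also occur in the pseudogene UBE2MP1. For UBE2F, 25.5% also occur in other genes, most often UBE2F-SCLY.

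UBE2L6, the E2 for the interferon-induced modifier ISG15, lies on chromosome 11 (57551656 to 57568284, minus strand). It was among the least abundant members, with 8.31, 11.1 and 10.3 CPM with GST and 18.5, 14.97 and 17.1 with GST-Ferry. The baits were separated, and the log2 fold change was 0.83 ± 0.25 (SE, adjusted p = 0.120 by edgeR). The counts behind it were 76 to 116 per GST library and 40 to 121 per GST-Ferry library. UBE2Z, which accepts ubiquitin and the modifier FAT10 from the E1 UBA6, measured 87.1 ± 8.34 and 104 ± 9.26 CPM (SD, n = 3 each).

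The other steps of the NEDD8 and ISG15 relays are given whole, a grouping made after the values were seen. For NEDD8, the E1 subunits NAE1 and UBA3 had log2 fold changes of 0.36 and -0.10, and NEDD8 itself 0.36. For ISG15, the E1 UBA7 was near the detection floor at 0.374 to 1.81 CPM per library, and ISG15 measured 6.03 ± 2.99 and 6.76 ± 0.558 CPM. None of these relay genes was called by edgeR, and the components of each relay had unequal values.

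The E2s of the K63 pathway, used in DNA damage tolerance and immune signalling, had log2 fold changes on both sides of 0. None of them passed the edgeR test, and the differences among them were not tested. UBE2V1, a catalytically inactive partner of UBE2N, lies on chromosome 20 (50081124 to 50115959, minus strand). It measured 24.1, 26.4 and 19.5 CPM with GST and 12.3, 8.98 and 12.2 with GST-Ferry. All GST-Ferry values lay below all GST values, with the lowest log2 fold change of the family, -0.99 ± 0.24 (SE, adjusted p = 0.0671 by edgeR). The DESeq2 adjusted p for UBE2V1 was 0.0143. The paralog UBE2V2, 83.7% identical in coding sequence, measured 70.1 ± 7.64 and 61.7 ± 8.78 CPM (SD, n = 3 each), and its log2 fold change was -0.13 ± 0.20 (SE). UBE2N, the catalytic subunit, measured 105 ± 23.0 and 114 ± 11.95 CPM, with a log2 fold change of 0.16 ± 0.23 (SE).

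The UBE2V1 value needs care over read assignment. Of its 50-base windows, 97.3% also occur in other genes, chiefly the readthrough gene PEDS1-UBE2V1, which spans UBE2V1 and its neighbour and overlaps 42.9% of its exon bases. PEDS1-UBE2V1 is listed at 0 counts in all 6 libraries. How reads that fit both genes were counted is not given in the sources used here. UBE2V1 itself had 144 to 276 counts per GST library and 24 to 80 per GST-Ferry library. UBE2N overlaps NUDT4 on the opposite strand over 39.5% of its exon bases.

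The RAD6 class, which works with RAD18 on PCNA and with RNF20 and RNF40 on histone H2B, had both members below 0. UBE2A measured 49.0 ± 17.8 and 42.1 ± 7.63 CPM and UBE2B measured 60.5 ± 20.2 and 45.5 ± 3.09 CPM (SD, n = 3 each). Their log2 fold changes were -0.18 ± 0.28 and -0.38 ± 0.27 (SE), and in both the libraries of the baits overlapped. GST 3 was the highest library for both, at 69.6 CPM for UBE2A and 83.2 CPM for UBE2B, and without it the log2 fold changes were 0.24 and -0.003.

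The broad chain-starting E2s, the UBE2D (UbcH5) and UBE2E classes with UBE2W, serve many E3 ligases. Of these 8, 6 stood above 0, and their median log2 fold change was 0.09. UBE2D3, the most abundant member in CPM, measured 206, 214 and 370 CPM with GST and 250.3, 258 and 210.2 with GST-Ferry. GST 3 lay above every other library, and GST 1 and GST 2 lay at the level of GST-Ferry 3. The log2 fold change of UBE2D3 was -0.11 ± 0.27 (SE), and 0.30 without GST 3. UBE2D2, with 84.4% coding identity to UBE2D3 and a longest identical run of 80 bases, within which a read cannot tell the paralogs apart, measured 117 ± 6.27 and 127 ± 2.68 CPM (SD, n = 3 each). UBE2D1 measured 21.4 ± 8.86 and 21.3 ± 3.15 CPM and UBE2D4 measured 20.9 ± 5.54 and 21.4 ± 1.27 CPM, with log2 fold changes of 0.03 ± 0.32 and 0.07 ± 0.27 (SE).

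Within the UBE2E class the libraries of UBE2E3 were the closest together. UBE2E3, on chromosome 2 (180967248 to 181076585, plus strand), measured 52.8, 50.5 and 53.2 CPM with GST and 55.6, 61.0 and 55.4 with GST-Ferry. The CPM values did not overlap, yet the log2 fold change was 0.20 ± 0.19 (SE, adjusted p = 0.604 by edgeR), and on TMM-scaled values GST 3 lay above GST-Ferry 1. UBE2E1 measured 115 ± 35.8 and 126 ± 17.6 CPM and UBE2E2 measured 42.1 ± 3.85 and 43.5 ± 3.79 CPM (SD, n = 3 each). UBE2W, which modifies the amino terminus of its substrates, measured 25.5, 22.9 and 77.9 CPM with GST and 30.6, 21.7 and 20.0 with GST-Ferry. GST 3 alone was high, and the log2 fold change of UBE2W was -0.79 ± 0.44 (SE) with it and 0.13 without it.

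The E2s of endoplasmic reticulum quality control (ERAD) and K48 chains had 2 members above 0 and 4 below, with a median of -0.04. Without GST 3, 5 of the 6 stood above 0, with UBE2G1 at 0.13, UBE2J1 at 0.19 and UBE2K at 0.36. UBE2K, which builds K48 chains, measured 130.2, 112 and 311 CPM with GST and 172, 134 and 127 with GST-Ferry. As with UBE2W and UBE2D3, GST 3 was far above the rest, and the log2 fold change with it was -0.35 ± 0.36 (SE). UBE2G2, which serves ERAD ligases, measured 167, 168 and 123 CPM with GST and 132, 116 and 118 with GST-Ferry. Only GST 3 lay within the GST-Ferry range in CPM, and the log2 fold change was -0.25 ± 0.18 (SE, adjusted p = 0.467 by edgeR). The membrane-anchored UBE2J1 and UBE2J2 had log2 fold changes of -0.07 ± 0.24 and 0.41 ± 0.21 (SE). UBE2R2, which works with SCF ligases, stood at 0.39 ± 0.19 and UBE2G1 at -0.02 ± 0.22 (SE).

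Among the remaining E2s the paralogs UBE2Q1 and UBE2Q2, which share 74.6% of their aligned coding bases, lay on opposite sides. UBE2Q1, on chromosome 1 (154548577 to 154559028, minus strand), measured 57.9, 55.7 and 36.3 CPM with GST and 76.5, 84.6 and 70.5 with GST-Ferry. UBE2Q2, on chromosome 15 (75843285 to 75901078, plus strand), measured 58.4, 63.9 and 79.3 CPM with GST and 46.1, 32.2 and 34.6 with GST-Ferry. Both were separated between the baits, in opposite directions. Their log2 fold changes were 0.71 ± 0.20 and -0.79 ± 0.23 (SE), with adjusted p values of 0.105 and 0.107 by edgeR and 0.0475 and 0.0367 by DESeq2. The difference between the paralogs was not tested.

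UBE2O, a large enzyme that combines E2 and E3 activity, measured 144, 130.4 and 72.3 CPM with GST and 147, 131 and 154 with GST-Ferry. GST 3 was low here and the other libraries nearly level, with a log2 fold change of 0.41 ± 0.22 (SE, adjusted p = 0.336 by edgeR) and of 0.18 without GST 3. UBE2L3 (UBCH7), which serves HECT and RBR ligases, had a log2 fold change of 0.32 ± 0.20, UBE2H, the E2 of the MAEA ligase complex, 0.29 ± 0.21, and UBE2T, which works with FANCL in the Fanconi pathway, -0.06 ± 0.24 (SE).

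**Figure D3:**
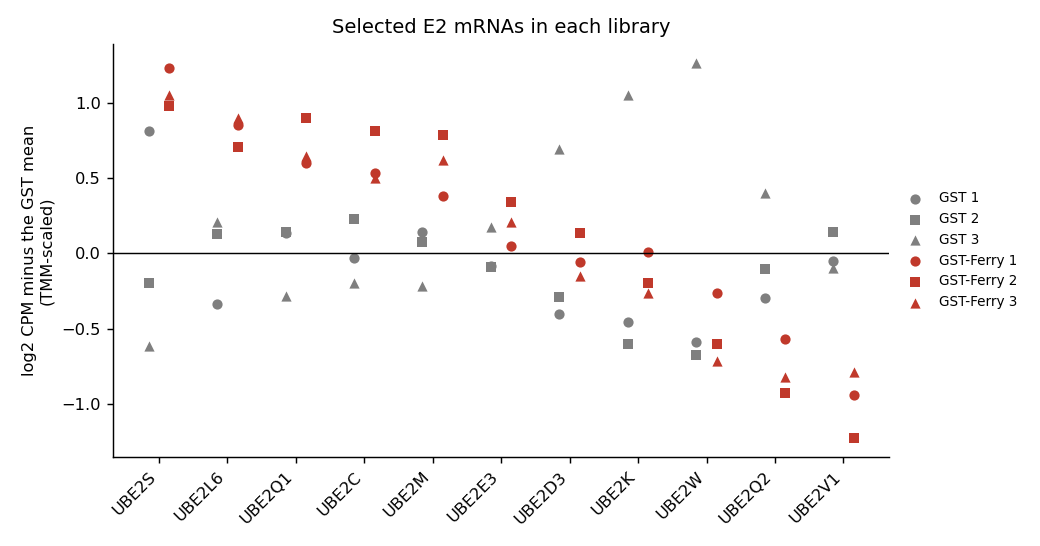
Difference of each library from the GST mean, in TMM-scaled log2 CPM, for 11 E2 mRNAs, with GST in grey and GST-Ferry in red. The GST-Ferry points of UBE2L6 and UBE2V1 lie clear of all GST points, while for UBE2D3, UBE2K and UBE2W the GST 3 triangle is the outlying point.

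The spread between libraries was larger with GST than with GST-Ferry. The median coefficient of variation of the tested members was 21.1% with GST and 10.6% with GST-Ferry, and 27 of the 32 varied more with GST. GST 3 had the highest CPM of the GST libraries for 18 tested members and the lowest for 11. The same counts over all genes are not given, so whether these traits are particular to the family is not known. Library totals were 7390346 to 10466520 counts with GST and 2454538 to 6532665 with GST-Ferry, so the shallow GST-Ferry libraries were not the more variable ones. Without GST 3, edgeR called 3 members enriched (UBE2L6 and UBE2Q1 among them) and 2 depleted (UBE2Q2 and UBE2V1), with 4.45% and 3.54% of all genes called. In that fit 27 of 32 members had a fold change above 0, and the median of the members was 0.262, against -0.009 over all genes tested.

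Transcript composition moved with the fold changes of the family. Across the 32 tested members, the G+C content of the principal transcript and the log2 fold change had a Pearson r of 0.687 and a Spearman rho of 0.756. Over 12831 tested genes with a transcript the values were 0.553 and 0.589. These are correlations across genes that share the same 6 libraries, and genes are not independent replicates. Of 16 members under 45% G+C, 4 stood above 0 (25%, against 21.7% of all genes in that range), and their median was -0.09. Of 11 members at 50% or more, 10 were above 0 (90.9%, against 76.6%), with a median of 0.59 against 0.28 for all genes. UBE2S at 55.7% G+C, UBE2L6 at 56.4% and UBE2M at 65.7% were in the high range, and UBE2V1 at 44.5%, UBE2Q2 at 42.2% and UBE2W at 34.8% in the low one. UBE2G2, at 50.5%, was the member in the high range with a value below 0.

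The same composition separated GST 3 from the other GST libraries. Across the members, G+C content and the log2 difference of GST 3 from the mean of GST 1 and GST 2 had an r of -0.753 and a rho of -0.782, against -0.727 and -0.742 over all genes. With GST 3 left aside, G+C content and the difference of GST-Ferry from GST 1 and GST 2 had an r of 0.339 and a rho of 0.417 for the members, against 0.244 and 0.264 over all genes. With offsets for G+C content and length in the fit, log2 fold changes were -0.91 for UBE2V1, 0.76 for UBE2S, 0.63 for UBE2Q1, -0.59 for UBE2Q2 and 0.51 for UBE2L6. In that fit 0 members were called in either direction, while 0.798% of all genes were called enriched and 0.264% depleted. At an unadjusted p under 0.05, edgeR gave 8 higher and 3 lower members. The share of all genes at that unadjusted p is not given for that fit, so these counts cannot be set against those without the offsets. Of the 32 members, 25 stood above 0 with a median of 0.181, against 19 and 0.137 without the offsets. The median over all genes with the offsets was -0.028. The part of composition in the differences between the baits was not tested.

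**Figure D4:**
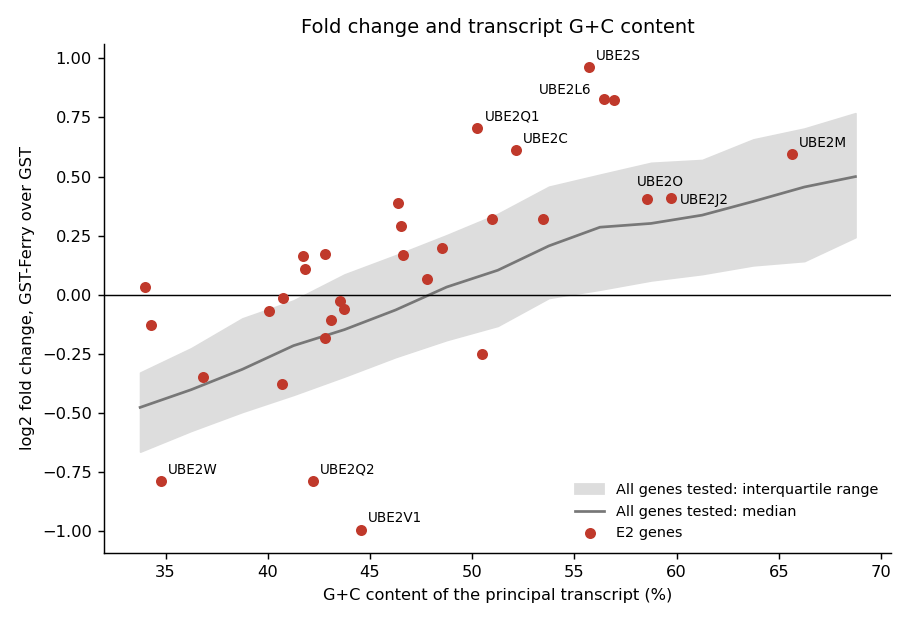
Log2 fold change of GST-Ferry over GST against the G+C content of the principal transcript for the 32 tested E2 genes (red), over the median and interquartile range of all tested genes in windows of G+C content (grey). Among the members above the grey band are UBE2S, UBE2L6, UBE2Q1 and UBE2C. UBE2D1 (0.03) and UBE2V2 (-0.13), of low G+C content and with fold changes near 0, also lie above it. UBE2V1, UBE2Q2, UBE2W and UBE2G2 are among those below it.

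Other genes of the pathway gave the family its setting. Of 33 tested proteasome subunits, 29 had a fold change above 0, 17 were separated upwards (51.5%) and 0 downwards, and the median log2 fold change was 0.55. Over all genes tested, 47.8% stood above 0, 11.9% were separated upwards and 13.9% downwards. PSMB6, a catalytic core subunit, was the one called, rising from 45.9 ± 9.88 to 98.0 ± 20.4 CPM (log2 fold change 1.18 ± 0.23, adjusted p = 0.0477 by edgeR). Of 57 deubiquitinases and ubiquitin-like proteases, 1 was enriched, the neuronal ubiquitin hydrolase UCHL1, which rose from 226 ± 6.49 to 505 ± 98.9 CPM (1.23 ± 0.22, adjusted p = 0.0420 by edgeR). The median of that list was 0.001, and in CPM 6 of its genes were separated upwards and 17 downwards (29.8%). Both calls were lost with RLE size factors, with library sizes alone, with limma-voom, and without GST 1, GST 2, GST-Ferry 2 or GST-Ferry 3, with adjusted p values by edgeR of up to 0.425 and log2 fold changes of at least 1.01. In DESeq2, 7 of the 33 proteasome subunits were enriched and 0 depleted, against 3 and 1 of the 57 deubiquitinases and ubiquitin-like proteases. Over all genes, DESeq2 called 3.43% enriched and 1.14% depleted.

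In the lists of E1s, modifiers, E3s and E2-like genes, edgeR called no gene. The background for the unadjusted counts that follow is 11.3% of all genes tested higher and 8.05% lower. Among 10 E1 genes, edgeR gave 2 higher and 0 lower with unadjusted p under 0.05, and the most abundant, UBA1, which charges most ubiquitin E2s, measured 549 ± 114 and 911 ± 51.4 CPM (log2 fold change 0.81 ± 0.20, adjusted p = 0.0755 by edgeR). Among 19 tested ubiquitin and ubiquitin-like modifiers, 15 were above 0 with a median of 0.29, 5 were higher and 2 lower at that unadjusted p, and UBB measured 634 ± 62.7 and 918 ± 195 CPM. The list also counts ATG5, the protein to which the modifier ATG12 is joined, and ATG5 was 1 of the 2 lower genes. Among 91 E3 genes, 42 were above 0 and 49 below, with a median of -0.05. At that p, 10 were higher and 6 lower. In CPM, 9 of the E3 genes were separated upwards (9.89%, against 11.9% of all genes tested) and 22 downwards (24.2%, against 13.9%). HUWE1 of this list measured 1192 ± 215 and 1262 ± 7.95 CPM. Of the 9 tested E2-like genes outside the UBE2 names, 5 were above 0, 2 were higher and 1 lower at that p, and BIRC6 measured 555 ± 31.8 and 426 ± 52.3 CPM with a log2 fold change of -0.33 ± 0.20 (SE). The median of the E2 family, 0.14, lay between those of the E3 and proteasome lists. DESeq2 called 2 E1 genes, 0 modifiers, 3 E3 genes and 1 E2-like gene enriched and 0 depleted in each. Its shares over all genes were 3.43% enriched and 1.14% depleted. With limma-voom, 0 were called in all of these lists.

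**Figure D5:**
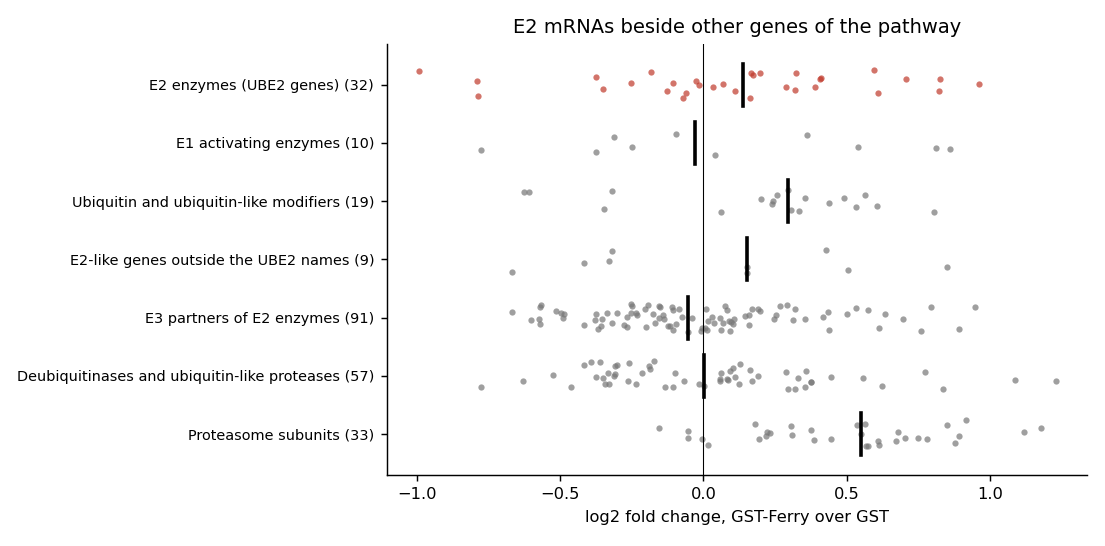
Log2 fold change of GST-Ferry over GST for each tested gene (points) of the E2 family (red) and 6 other lists of the ubiquitin system (grey), with the number tested in parentheses and the median as a black bar. The E2 median is 0.14, against 0.55 for proteasome subunits and -0.05 for E3 partners.

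The identity of the source cells was checked with marker genes. All 8 genes listed for HEK 293 cells were at 1 CPM or more in every library, with a summed level of 238 to 269 CPM with GST and 340 to 451 CPM with GST-Ferry. NEFL, a neurofilament gene, was the largest part of that difference, at 116 to 134 CPM with GST and 175 to 330 CPM with GST-Ferry, and its part in the E2 results was not tested. The 9 markers of blood, liver, erythroid, muscle and fibroblast cells summed to 4.01 to 7.04 CPM, with CD3E and HBB at 0 in every library. Of these 9, 6 were under 1 CPM in every library. By the rule used for the HEK 293 genes, 1 of the 9 was present, the fibroblast gene LUM at 1.50 to 6.36 CPM.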

How the data were processed

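RNA from 3 GST and 3 GST-Ferry pulldowns out of HEK 293 lysate was sequenced with strand-specific libraries, per the labels' protocols. The authors deposited raw read counts per gene for 60676 Ensembl IDs. The tools named are bcl2fastq 2.19.1 and STAR 2.5.2b, with build GRCh38.p13, per the submitters' processing notes. The counting program, its strand setting, its annotation and its treatment of reads with several matches are not given in the sources used here. Per the file headers, columns are named control or sample with a number. Reading control as GST, sample as GST-Ferry and the numbers as replicates is an assumption from these words.

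Symbols (58575 IDs), gene types (58503) and transcripts came from GENCODE 29 and a gene name table. Levels are CPM computed from the counts, and 3 counts correspond to 0.287 to 1.22 CPM per library, which covers counting error only. Genes were filtered with filterByExpr (minimum count 10, minimum total 15), scaled with TMM (factors 0.923 to 1.1) and tested over 15546 genes with the quasi-likelihood test of edgeR 4.0.16 in R 4.3.3, two-sided and without covariates, with Benjamini-Hochberg adjustment over all genes and a threshold of 0.05. Fold changes are GST-Ferry over GST. The fit was also run on simulated counts, with an outcome not reported here. Those counts were drawn without a G+C trend or an outlying library, so that run cannot speak to these features of the data. Whether replicates are separate cultures is not said in the labels. The p-values therefore cover the spread among these libraries, which may be technical. Libraries of a bait differed beyond counting noise (chi-square over degrees of freedom 4.15 to 59.7). DESeq2 1.42.0 and limma 3.58.1 (voom) were alternatives. G+C content and per-kilobase levels use 1 principal transcript per gene.

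Members and gene lists were chosen with earlier results of these data known. Members with a call, with separated baits or among the 5 most abundant are given by library, and of each pathway list the called genes or the most abundant gene are named. Genes named outside this rule are marked. The values and sequences of some members and pathway genes are not reported here, although the counts and medians include them. Figures were drawn with matplotlib 3.10.9.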

Additional observations from a re-analysis of the deposited data

How the results depend on the processing

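There were 3 libraries a bait, with 2454538 to 6532665 counts in the GST-Ferry libraries, so small differences may go uncalled. The part of library number and depth in the number of calls was not tested. No E2 gene was called with RLE size factors, library sizes alone, a CPM filter (1 CPM in 3 libraries), limma-voom, the 5 bait subunit genes removed, thinning to equal depth, or offsets for G+C content and length. Without any filter beyond a total above 0, edgeR called 2 enriched (UBE2S among them) and 3 depleted (UBE2Q2, UBE2V1, UBE2W), with 1.29% and 0.989% of all genes called, and DESeq2 called 3 and 2, with 3.43% and 1.14%. At an adjusted p threshold of 0.01 the main count stayed 0. Leaving out 1 library gave 0 to 3 enriched and 0 to 2 depleted members, with 16 to 27 above 0 and a median from -0.007 to 0.262. The highest counts were without GST 3, and UBE2S was called without GST 1.

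Deviations of the libraries from the mean of their bait were correlated across genes. Same-numbered libraries gave 0.246, 0.0793 and -0.133, and libraries with unlike numbers gave -0.263 to 0.184, so the numbers were not taken as pairs. With the replicate block 1 member was enriched (UBE2S, log2 fold change 1.07, adjusted p = 0.0474 by edgeR) and UBE2G1 stood at 0.004, while all genes gave 167 enriched and 28 depleted.

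Leaving out GST 3 and GST-Ferry 1 together, chosen after seeing the data as were thinning and the offsets, gave 7 enriched (among them UBE2C, UBE2E1, UBE2L6, UBE2M, UBE2N, UBE2Q1) and 2 depleted members (UBE2Q2, UBE2V1), with a median of 0.340 and 11.5% and 6.51% of all genes called.

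Across 17 alternatives 18 members kept their sign and 14 changed it at least once. Without GST 3 and GST-Ferry 1 the values were 0.170 for UBE2A, 0.048 for UBE2B, 0.348 for UBE2D3, 0.032 for UBE2F, 0.109 for UBE2G1, 0.271 for UBE2J1, 0.297 for UBE2K and 0.131 for UBE2T. With offsets they were 0.074 for UBE2D3, 0.103 for UBE2F, 0.226 for UBE2G1, 0.216 for UBE2J1, 0.145 for UBE2K and 0.306 for UBE2V2. Without a filter UBE2D1 stood at -0.014. UBE2G1 stood at 0.018 with limma-voom and 0.052 with thinning. Leaving out 1 library, UBE2A ran from -0.387 to 0.241, UBE2D1 from -0.209 to 0.503, UBE2D3 from -0.319 to 0.303 and UBE2D4 from -0.145 to 0.353. UBE2E1 ran from -0.048 to 0.532, UBE2E2 from -0.003 to 0.239, UBE2F from -0.226 to 0.130 and UBE2G1 from -0.196 to 0.131. UBE2J1 ran from -0.241 to 0.192, UBE2K from -0.649 to 0.360, UBE2T from -0.291 to 0.130 and UBE2W from -1.128 to 0.127. Over the pathway lists, 2 genes were enriched and 0 depleted. RLE size factors, library sizes alone and limma-voom gave 0 enriched, and no filter and DESeq2 gave 16 enriched and 1 depleted. Offsets gave 7 enriched, and leaving out GST 3 and GST-Ferry 1 gave 49 and 5. Over all genes, 1.29% were enriched and 0.989% depleted with no filter, and 3.43% and 1.14% with DESeq2. The shares were 0.798% and 0.264% with offsets, and 11.5% and 6.51% without GST 3 and GST-Ferry 1. Leaving out 1 library gave 0 to 23 enriched and 0 to 3 depleted. UBA3 stood at 0.168 without GST 3 and GST-Ferry 1, 0.096 with thinning and 0.164 with offsets, and ISG15 at -0.036 without those libraries and -0.254 with offsets. Leaving out 1 library, UBA3 ran from -0.252 to 0.033 and ISG15 from -0.094 to 0.448. The cause of these changes was not tested, and fits with libraries left out also had fewer samples.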
